A study of Mus musculus with 3 samples.

Results

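G6pd2 and Gk encode, or closely copy, enzymes at the entry to the oxidative pentose phosphate pathway and to glycerol metabolism, and were read in polymorphonuclear myeloid-derived suppressor cells (PMN-MDSCs). They are 2 of the 15 reference genes whose probes carry a RefSeq accession on an Arraystar mouse lncRNA array, and were taken by probe, one for G6pd2 (NM_019468.2) and one for Gk (NM_008194.3). Each probe was printed in 20 spots per array. The members were chosen by their signal differences between these arrays, so every value below is a description and carries no test.

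The donors were C57BL/6 males, 6 to 8 weeks old. PMN-MDSCs of tumor tissue and of spleen were taken from tumor-bearing animals, and the remaining group came from wild-type spleens, each group on 1 array. MDSC kit enrichment was followed by sorting on CD11b and Ly6G, with a Ly6G clone that is usually sold as anti-Gr-1 and then also binds Ly6C. The labels give neither the tumor line nor how many mice made up a sample. Of 38 marker genes of neutrophils, monocytes and macrophages, lymphocytes, erythroid cells and tumor or stroma, 0 had a named probe, so the labelled cell type was not checked here, and in a sorted bulk sample fewer cells of a type and less RNA per cell cannot be told apart. Errors below are the SD between repeated spots, which is technical and holds no variation between mice.

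Glucose-6-phosphate dehydrogenase takes glucose-6-phosphate into the oxidative pentose phosphate pathway and makes NADPH, which neutrophil-lineage cells use for the oxidative burst and for keeping glutathione reduced. In the mouse the enzyme is encoded on the X chromosome by G6pdx, and G6pd2 is an autosomal copy without introns, known from the male germ line. Gk encodes glycerol kinase, also X-linked, which phosphorylates glycerol released from fat to glycerol-3-phosphate, a precursor of glycerolipids and a link to glycolysis. In the RefSeq table (GRCm38.p6) the G6pd2 gene spans 1635 bases on chromosome 5, G6pdx 19398 bases on chromosome X and Gk 74883 bases on chromosome X.

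The 250 bases before each annotated gene start are shown to set the 2 members and G6pdx side by side. Lying before the annotated genes, they do not show what the G6pd2 probe reads. They are from RefSeq (GRCm38.p6, another build than the mm9 of the array grid), written 5′ to 3′ on the gene's strand, G6pd2 at chr5:61808593-61808842 (+), G6pdx at chrX:74428881-74429130 (-) and Gk at chrX:85776820-85777069 (-). Capitals mark motif matches in G6pdx and Gk, and in G6pd2 the start of a stretch shared with G6pdx.
G6pd2: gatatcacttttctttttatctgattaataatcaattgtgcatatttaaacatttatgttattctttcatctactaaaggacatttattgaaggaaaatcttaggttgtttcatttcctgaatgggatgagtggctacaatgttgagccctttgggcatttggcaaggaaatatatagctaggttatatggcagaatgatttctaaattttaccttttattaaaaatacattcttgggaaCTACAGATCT
G6pdx: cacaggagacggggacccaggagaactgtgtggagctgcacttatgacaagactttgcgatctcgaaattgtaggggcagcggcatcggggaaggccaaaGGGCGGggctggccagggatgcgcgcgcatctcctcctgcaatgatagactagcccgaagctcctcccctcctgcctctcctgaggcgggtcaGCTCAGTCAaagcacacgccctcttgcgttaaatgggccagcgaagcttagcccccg
Gk: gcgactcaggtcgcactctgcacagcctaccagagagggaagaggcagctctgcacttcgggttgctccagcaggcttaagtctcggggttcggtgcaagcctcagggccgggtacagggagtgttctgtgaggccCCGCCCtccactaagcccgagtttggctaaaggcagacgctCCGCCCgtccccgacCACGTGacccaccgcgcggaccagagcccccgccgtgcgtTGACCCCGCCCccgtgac

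The G6pd2 window was AT-rich, with 30.0% G+C and 0 CpG, against a median of 52.4% and 6 CpG over 32851 windows of this length. The G6pdx window had 61.2% G+C and 15 CpG, and the Gk window 67.2% and 21. G6pd2 and G6pdx shared a run of 27 bases at the gene start:
shared run: ctacagatctgtgaacgtgtttggcag
The run began 10 bases before the annotated start of G6pd2 and at base 16 of G6pdx. The longest run shared within the upstream windows alone was 6 bases. The sequences of both members' probes were not among the sources used here. The signal called G6pd2 below can therefore be that of G6pd2, of G6pdx or of both. The signal called Gk can likewise include that of related copies such as Gk2, and which of them the probe reads was not tested.

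The windows were searched on both strands for 7 motifs, chosen with the windows in view. The GC box GGGCGG, found in 32.7% of all windows, occurred 3 times before Gk and once before G6pdx. The E-box CACGTG, in 6.02% of windows, occurred before Gk, 58 bases from the start. The antioxidant response element TGACNNNGC, in 10.2% of windows, occurred before G6pdx and before Gk, where it overlapped a GC box. TATAAA (12.4% of windows), CCAAT (33.8%), TGACGTCA (1.55%) and its part TGACG (17.8%) had no match in the 3 windows, and the G6pd2 window held none of the 7. A match is only a description of these letters.

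Both probes lay far above background on all 3 arrays. All spots used were well above background by the scanner's flag. Of 120 spots, 14 had an outlier flag and were left out. No spot was saturated. The negative control spots without a flag reached at most 4.60 signal units on any array, and the dimmest Gk spot used read 416 units. The spots of G6pd2 were spread over grid rows 8 to 369 and those of Gk over rows 28 to 368 of 384.

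The G6pd2 probe was brightest in PMN-MDSCs of tumor-bearing spleen. There the signal ran from 32263 to 37645 units over 18 spots, with a median of 34354. In PMN-MDSCs of the tumor it ran from 12784 to 15534 over 19 spots, with a median of 14367. In wild-type spleen it ran from 4611 to 5271 over 17 spots, with a median of 4960. The 3 arrays did not overlap in any spot used, in the order tumor-bearing spleen, tumor, wild type. On the log2 scale the SD between spots was 0.06, 0.07 and 0.06 in that order. Such a gap is not read as particular to G6pd2, since spots of the 13 other reference genes also varied little. Their SD ran from 0.02 to 0.21 log2 units, with a median of 0.05. Between the spleens, scaled as below, 1 of them was at least 2-fold higher and 6 at least 2-fold lower. Whether their spots overlapped was not counted.

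The Gk probe was also brightest in tumor-bearing spleen, but its other arrays lay close together before any scaling between arrays. In tumor-bearing spleen the signal ran from 3119 to 3777 units over 19 spots, with a median of 3463. In the tumor it ran from 574 to 626 over 15 spots, with a median of 590.5. In wild-type spleen it ran from 416 to 542 over 18 spots, with a median of 495. Between the highest wild-type and the lowest tumor spot used lay a factor of 1.06. With the flagged spots these arrays overlapped, since the tumor then reached down to 524 and the wild type up to 574. The SD between spots was 0.07, 0.03 and 0.12 log2 units in tumor-bearing spleen, tumor and wild-type spleen.

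**Figure D1:**
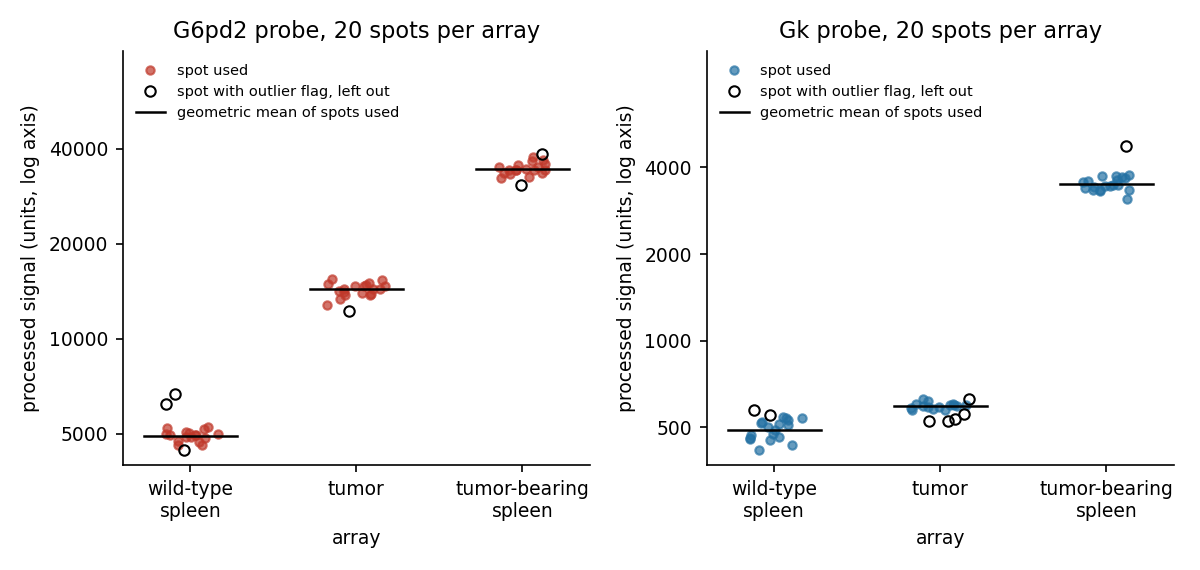
Processed signal (log axis) of every spot of the G6pd2 and Gk probes on the 3 arrays, with filled points for spots used, open points for spots with an outlier flag and lines for geometric means. G6pd2 falls into 3 separate levels, while Gk has 1 high array, at a median of 3463 units, and 2 low ones, at 590.5 and 495. Signals are not scaled between arrays.

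The arrays differ in brightness, with a 75th percentile of 524 units on the tumor array, 509 on that of tumor-bearing spleen and 698 on that of the wild type, so the differences below are of log2 signals from which that percentile was subtracted. The first comparison set the spleen of tumor-bearing mice against the wild-type spleen, the same organ. G6pd2 was 9.60-fold higher in tumor-bearing spleen, a log2 difference of 3.26 ± 0.08 (SD between spots, 1 array per group). Gk was 9.81-fold higher, at 3.29 ± 0.14. Of 42317 probes measured on both arrays, 27.4% were higher by 2-fold or more, as were 2 of 2 members, which were selected on these values, so nothing is read from that count. A difference above that of G6pd2 was found in 1115 probes (2.63%), and above that of Gk in 1082 (2.56%). The median difference over all probes was 0.29, and relative to it G6pd2 stood at 2.97 and Gk at 3.00.

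Because the spots keep their grid positions, each position gives its own difference. For G6pd2, 16 positions were usable on both spleen arrays, and their differences ran from 3.18 to 3.32. For Gk, 17 positions gave 3.07 to 3.62. The range of Gk was the wider one, as was the SD of its wild-type spots. Among the spots used, the readings also differed between blocks of grid rows, which leave out rows 28 and 136. At the Gk positions of rows 32 to 88, tumor-bearing spleen read 3617 to 3777 units and wild type 416 to 474. At those of rows 199 to 368 they read 3119 to 3600 and 453 to 542, so the wild-type blocks overlapped. Flagged wild-type spots, left out here, were brighter than either block, at 551 units in row 69 and 574 in row 136. The SD between spots of Gk can therefore hold a difference over the grid. Neither a trend nor its cause was tested.

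Tumor PMN-MDSCs were next set against the wild-type spleen, as in the design text. G6pd2 was 3.87-fold higher in the tumor, a log2 difference of 1.95 ± 0.09. Gk differed by 0.69 ± 0.12, a 1.62-fold higher signal that stayed within the 2-fold limit. Of 43417 probes measured on both arrays, 19.6% were higher in the tumor by 2-fold or more, G6pd2 among them. A difference above that of G6pd2 was seen in 3593 probes (8.28%), and above that of Gk in 11487 (26.5%), which places Gk in the body of the distribution. Position by position, G6pd2 ran from 1.84 to 2.09 over 17 positions and Gk from 0.56 to 0.86 over 13. The positions share the same 2 arrays and the same scaling, so they are not replicates, and nothing is read from their common sign. With no scaling Gk differed by 0.28, and with the 13 other reference probes as the scale by 1.27, so for Gk the side of the 2-fold limit rested on the scaling.

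Within tumor-bearing mice, both probes were lower in the tumor than in the spleen. Gk was 6.07-fold lower, at -2.60 ± 0.08, and G6pd2 2.48-fold lower, at -1.31 ± 0.09. At least 2-fold lower were 14.7% of the 42838 probes measured on both arrays. A lower difference than that of Gk was seen in 479 probes (1.12%), and lower than that of G6pd2 in 4039 (9.43%). Position by position the difference of Gk ran from -2.73 to -2.46 over 14 positions and that of G6pd2 from -1.45 to -1.09 over 18.

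**Figure D2:**
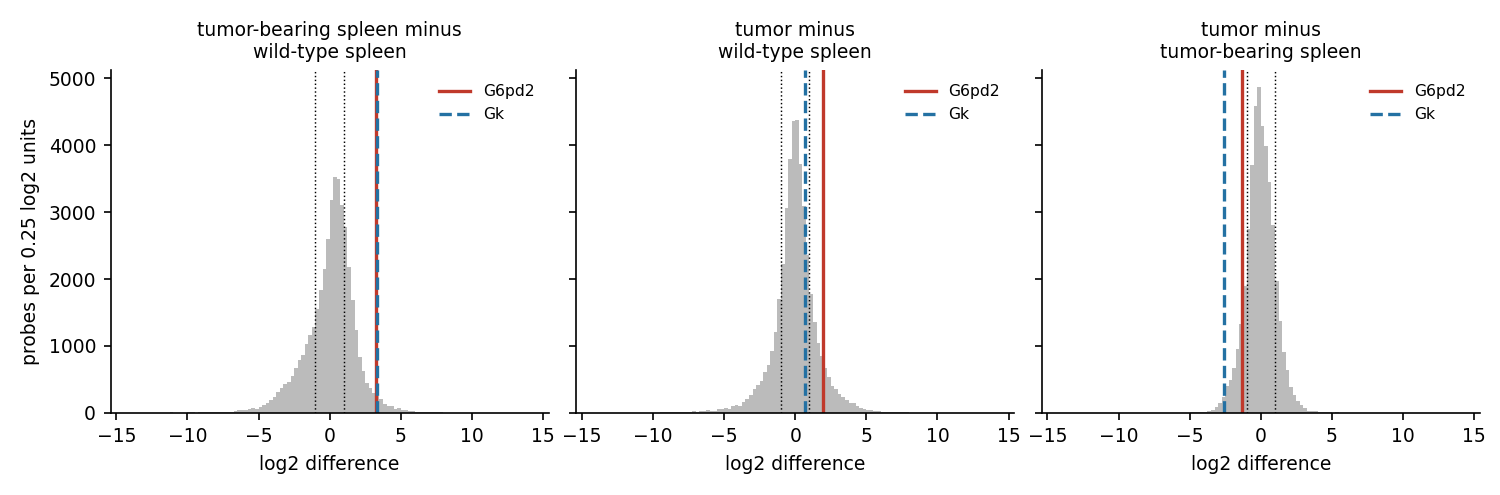
Number of probes (vertical axis, bins of 0.25 log2 units) by log2 difference in the 3 comparisons, over probes well above background on both arrays, with G6pd2 as a solid red and Gk as a dashed blue line and dotted lines at the 2-fold limits. The members coincide at 3.26 and 3.29 between the spleens and part in both comparisons with the tumor array.

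The members thus had like differences between the spleens and unlike ones for the tumor. Between the spleens the difference of Gk minus that of G6pd2 was 0.03 ± 0.16, from which any constant scale of an array drops out. For tumor against wild-type spleen it was -1.26 ± 0.15, and for tumor against tumor-bearing spleen -1.29 ± 0.12. Over all processing settings these figures ran from -0.18 to 0.06, from -1.53 to -1.25 and from -1.39 to -1.14. The comparisons share arrays, so the last pair of figures is not independent. In log2 units the tumor signal of G6pd2 stood above wild type by 59.8% of the difference seen in tumor-bearing spleen, and that of Gk by 21.0%. The share for Gk moved with the scaling, from 9.82% without scaling to 30.5% on the scale of the 13 other reference probes, and that for G6pd2 ran from 54.8% to 63.0% over all settings.

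Of 41251 probes that all 3 arrays measured, 563 (1.36%) had the steps of G6pd2, at least 2-fold from wild-type spleen to tumor and at least 2-fold again to tumor-bearing spleen. The shape of Gk, at least 2-fold higher in tumor-bearing spleen than on both other arrays with those within 2-fold of each other, was shared by 3345 (8.11%). With a limit of 4-fold for tumor-bearing spleen, 378 (0.916%) had it, Gk included. No other named reference gene had either shape. Both shapes were drawn from the members' own values and counted with the main scaling only, so nothing is read from these shares. Scaled by the 13 other reference probes, Gk differed by 1.27 in tumor against wild type and -2.91 in tumor against tumor-bearing spleen. On that scale Gk thus had the steps of G6pd2 and not the shape named for Gk here.

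Likeness was taken as the Euclidean distance between profiles over the 3 arrays, each centred on its own mean. Among the 15 reference genes, G6pd2 and Gk were nearest to each other, at 1.04 log2 units. Next came Ldhal6b, a lactate dehydrogenase A-like gene, at 1.44 from G6pd2 and 1.92 from Gk. Ldhal6b differed from wild type by 1.25 ± 0.26 in tumor-bearing spleen and 1.22 ± 0.23 in the tumor. Farthest were Rpl13a, a ribosomal protein gene, at 4.68 from G6pd2 and 4.65 from Gk, and Hsp90ab1, a cytosolic chaperone gene, at 4.47 and 4.40. Over all probes measured on the 3 arrays others lay nearer, with 349 within 0.5 log2 units of G6pd2 and 156 within 0.5 of Gk. The nearness of the members among the reference genes describes how they were picked.

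Between the spleens the 13 other reference genes ran from -3.27 (Rpl13a) to 1.25 (Ldhal6b), with a median of -0.73. For tumor against wild type they ran from -2.27 (Hsp90ab1) to 1.22 (Ldhal6b), with a median of -0.41. Gk and G6pd2 had the highest differences of all 15 between the spleens. They were 0.03 ± 0.16 apart, and which of them was higher changed with the processing. For tumor against wild type G6pd2 was highest, followed by Ldhal6b and then Gk. Within tumor-bearing mice the members were the lowest of all 15, while the others ran from -0.64 (Gapdh) to 1.28 (Tuba1b). The members were picked by such differences, so nothing is read from these ranks.

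**Figure D3:**
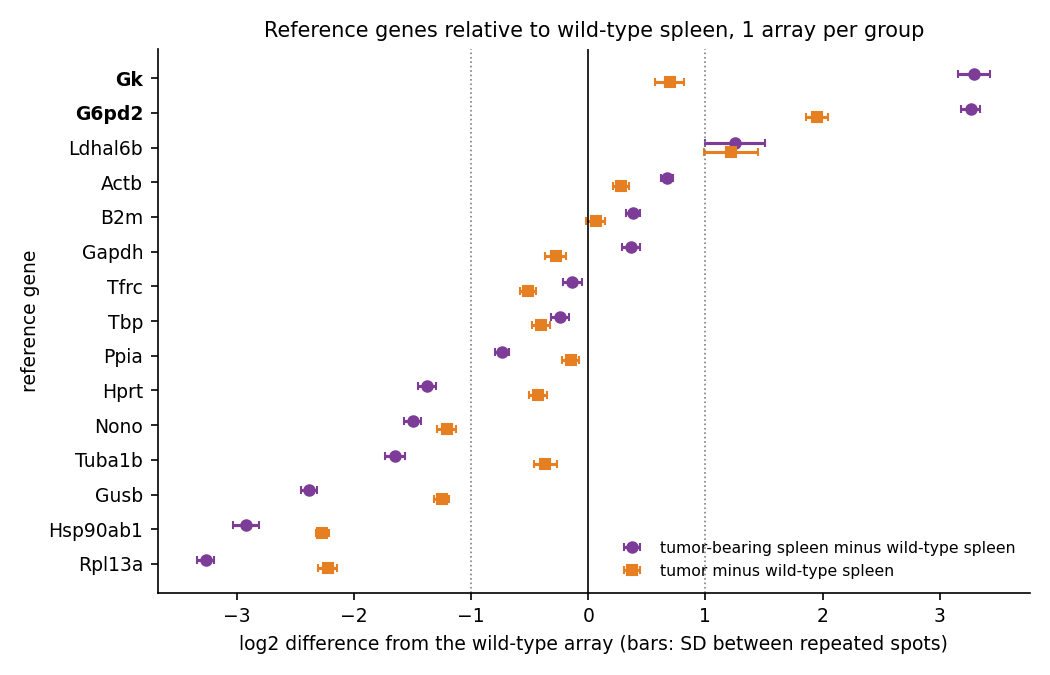
Log2 difference from the wild-type array of the 15 reference genes, with circles for tumor-bearing spleen, squares for tumor, bars for the SD between repeated spots and dotted lines at the 2-fold limits. G6pd2 and Gk, in bold, stand at 3.26 and 3.29 in tumor-bearing spleen, and the next gene, Ldhal6b, at 1.25.

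Control probes at transcript ends bear on RNA length. Those at the 5′ end of Pgk1 differed from wild type by -1.93 ± 0.10 in tumor-bearing spleen and -1.98 ± 0.08 in the tumor, those at its 3′ end by -0.56 ± 0.06 and -0.85 ± 0.04. The 5′ end of Pgk1 thus lay further below wild type than its 3′ end, in tumor-bearing spleen and in the tumor. For Gapdh the ends stayed together, at 0.13 ± 0.08 (5′) and 0.29 ± 0.06 (3′) in tumor-bearing spleen and -0.60 ± 0.07 and -0.55 ± 0.06 in the tumor. The part of RNA length in the differences of G6pd2 and Gk was not tested.

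In the authors' deposited table the G6pd2 probe had log2 values of 11.87 in wild-type spleen, 14.04 in tumor and 15.35 in tumor-bearing spleen. Gk had 8.67, 9.32 and 12.02 in the authors' deposited table, the same order. The order with tumor-bearing spleen highest and wild-type spleen lowest held for both probes under all 10 alternatives tried. Between the spleens the fold ran from 7.01 to 17.8 for G6pd2 and from 7.16 to 18.2 for Gk, lowest without scaling and highest with the 13 other reference probes as the scale. In the tumor against wild type it ran from 2.90 to 5.79 for G6pd2.

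**Figure D4:**
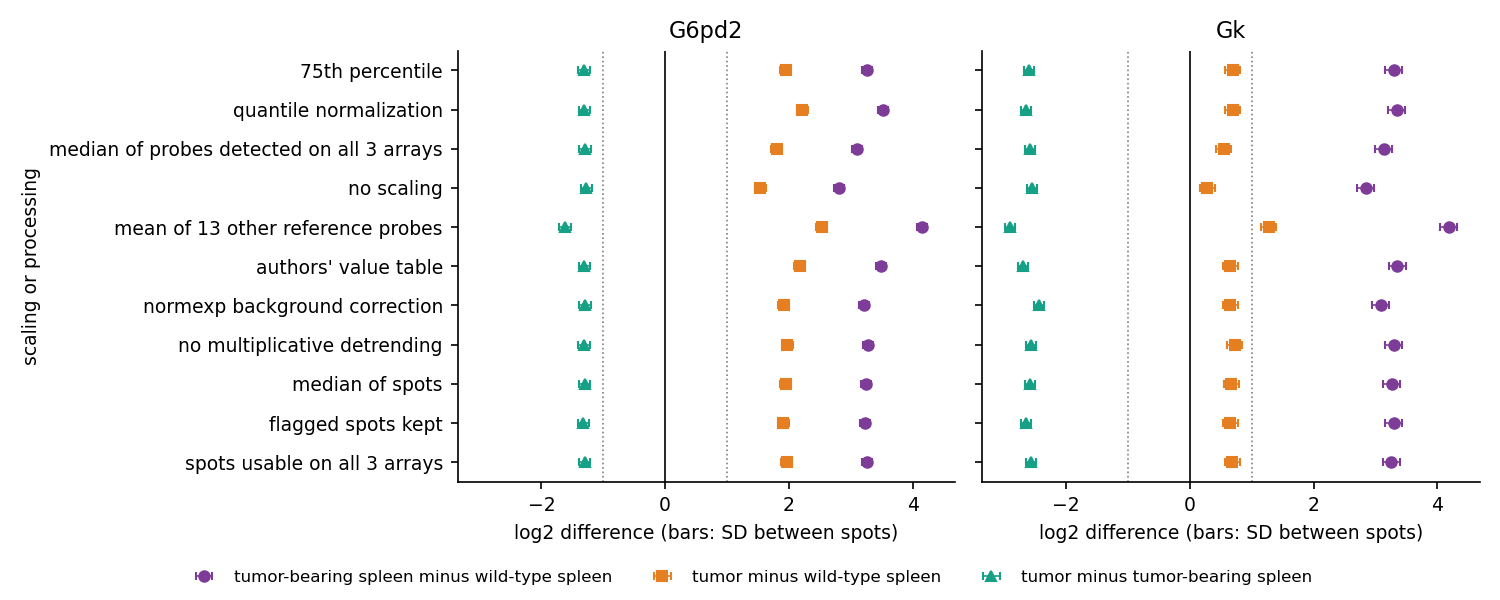
Log2 differences of G6pd2 and Gk (horizontal axis, bars for the SD between spots of the main values) under the 75th percentile and 10 other settings (vertical axis), with dotted lines at the 2-fold limits. Each difference keeps its sign, and Gk in tumor against wild-type spleen crosses the 2-fold limit in 1 setting, at 1.27.

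The rest of both pathways could not be described. Of 9 genes of the pentose phosphate pathway, G6pd2 alone had a named probe, and of 17 genes of glycerol and glycerol-3-phosphate metabolism Gk alone did. Of 8 other sources of NADPH and 13 NADPH users, among them the subunits of the phagocyte oxidase, 0 had one.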

How the data were processed

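Total RNA was labelled with Cy3 and hybridised in 1 colour, 1 array per group. Per the file headers, the deposited intensity values were extracted with Agilent Feature Extraction 11.0.1.1, background-subtracted and detrended within the array but not scaled between arrays, and a multiplicative detrending is recorded for all but the array of tumor-bearing spleen. This changed member spots to between 88.1% and 109.8% of their background-subtracted signal. The authors' deposited log2 value table had equal medians of 6.40, and no source used here states its scaling.

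Spots with an outlier flag were left out, the remaining log2 signals were averaged per probe, and the 75th percentile of each array, over 60905 probes with a usable spot on all arrays, was subtracted. Leaving out outliers narrows the SD between spots: with all spots it was 0.07 to 0.14 for the members. A probe counted as measured where a majority of its spots passed the scanner's well-above-background flag on the arrays compared. With 1 array per group nothing was tested, 2-fold is a limit of size, and the number of arrays limits the precision. All 15 accessions matched a RefSeq symbol. The members and lists were chosen with earlier results of these data known. Named genes were the members and, for each, the 2 reference genes with the nearest and the 2 with the farthest profile, besides the ends of each range, which were added later together with the Pgk1 and Gapdh end probes. The counting steps were tested on simulated arrays. Software was limma 3.58.1 in R 4.3.3 (normexp, offset 50), numpy 2.4.6, pandas 2.3.3 and matplotlib 3.10.9 in Python 3.11.15.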

Additional observations from a re-analysis of the deposited data

How the results depend on the processing

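Each difference was recomputed under 10 alternatives, the last of which, restricting to grid positions usable on all 3 arrays, was chosen after seeing the data. Of 60 values 39 lay within the SD between spots of the main value, 21 lay outside it and 0 changed sign. With the 13 other reference probes as the scale, G6pd2 differed by 4.15 between the spleens, 2.53 in tumor against wild type and -1.62 in tumor against tumor-bearing spleen, and Gk by 4.18, 1.27 and -2.91. By construction this scale subtracts the mean difference of those probes. Without scaling, the differences from wild type in tumor-bearing spleen and tumor were 2.81 and 1.54 for G6pd2 and 2.84 and 0.28 for Gk. With the median of detected probes they were 3.10 and 1.81 for G6pd2 and 3.13 and 0.55 for Gk, where the median of all probes between the spleens moved from 0.29 to 0.13. Quantile normalization gave 3.52 and 2.22 for G6pd2, and the values deposited by the authors 3.49 and 2.18. For Gk in tumor against tumor-bearing spleen the authors' values gave -2.70 and normexp -2.44, and between the spleens normexp gave 3.08. The cause of the last group was not tested. Without the filter on dim probes, 19085 in place of 12384 probes differed at least 2-fold between tumor and tumor-bearing spleen, over 60905 in place of 42838 probes. No paired analysis was possible because each group had 1 array. What limits every value is 1 array per group.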

Other observations

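Of the G6pd2 spots left out, the one at grid row 236 in the last of 164 columns was flagged on all 3 arrays. It was the dimmest G6pd2 spot on each, at 12287 units in tumor, 30727 in tumor-bearing spleen and 4432 in wild-type spleen. The other G6pd2 spots left out were 1 bright spot of 38637 units in tumor-bearing spleen and 2 in wild-type spleen, of 6224 and 6695 units. For Gk, 5 spots were left out in tumor, from 524 to 629 units, 1 in tumor-bearing spleen, at 4744, and 2 in wild-type spleen, at 551 and 574.

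Probes with a profile close to that of a member were counted. Of 41250 other probes well above background on all 3 arrays, 349 (0.846%) lay within 0.5 log2 units of the profile of G6pd2 and 156 (0.378%) within 0.5 of that of Gk. Within 0.25 lay 80 and 39. No named reference gene was among them. Such counts were not made around other probes, and the members were selected for their differences, so nothing is read from these shares.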
